A study of Mus musculus with 15 samples.

Results

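The genes described here are 5 that act in inflammasomes and in lytic cell death, namely Pycard, Casp1, Casp4, Nlrp3 and Mlkl. Their probes were taken by the gene symbol of the array's annotation, which gave 9 of the 15978 probes: 1 each for Pycard and Casp1, 3 for Casp4, and 2 each for Nlrp3 and Mlkl. All 5 genes were among the 7669 tested. Illumina bead arrays measured RNA in bone marrow-derived macrophages, cells grown in culture from the marrow of specific pathogen-free C57Bl/6 mice. The cells were left unprimed or primed for 18 h with IFNγ, the type II interferon, or IFNβ, a type I interferon. They were then left without LPS, the outer membrane lipid of Gram-negative bacteria, or received it for 6 h. The 15 arrays held 3 with IFNγ and LPS (IFNγ+LPS), 2 with IFNβ and LPS (IFNβ+LPS), 2 with LPS alone, 3 with IFNγ, 2 with IFNβ and 3 controls without either agent. The labels give the LPS as ultrapure from E. coli at 10 ng/ul, a unit that is in doubt, and no interferon dose was recorded here. Nothing in them tells if the arrays within a group trace back to different mice or dishes, and the p-values therefore cover no more than array-to-array spread, possibly technical. Whether cells without LPS were kept for the same further 6 h was not recorded here either.

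Inflammasomes are protein assemblies by which macrophages turn danger signals into the cleavage of interleukins and the rupture of the cell. In the canonical pathway a sensor such as NLRP3 recruits the adaptor ASC, the product of Pycard, which clusters and activates caspase-1. Active caspase-1 matures IL-1β and IL-18 and cuts gasdermin D, whose freed part forms pores in the plasma membrane, a death called pyroptosis. In the non-canonical pathway mouse caspase-11, the product of Casp4, binds LPS in the cytosol and cuts gasdermin D directly. MLKL works in a separate lytic death, necroptosis, in which the kinase RIPK3 phosphorylates it and it then breaches the plasma membrane. LPS treatment is the classic priming step in macrophage experiments, since it raises sensor and substrate RNA before the sensor is triggered. The arrays measured RNA only, not protein, cleavage or death, and in such bulk samples fewer cells of a type and less RNA per cell cannot be told apart.

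On the RefSeq annotation of build GRCm38.p6 the 5 genes lie on 4 chromosomes. Casp1 (chr9:5298517-5307281) and Casp4 (chr9:5308849-5336791) are next to each other on chromosome 9, with Casp12 after them. Pycard lies at chr7:127991373-127993867, Mlkl at chr8:111311255-111338479 and Nlrp3 at chr11:59541569-59566955. The promoters of the adaptor, the neighbouring caspases and the necroptosis effector are shown because those 4 genes carry the results below. Each is RefSeq sequence of that build, 5′ to 3′ on the gene's strand, from 250 bases before to 50 after an annotated transcript start. Capitals mark matches, on either strand, to an NF-κB form spelt GGG and TTTCC with any 2 bases between.
Pycard promoter, chr7:127993818-127994117, minus strand: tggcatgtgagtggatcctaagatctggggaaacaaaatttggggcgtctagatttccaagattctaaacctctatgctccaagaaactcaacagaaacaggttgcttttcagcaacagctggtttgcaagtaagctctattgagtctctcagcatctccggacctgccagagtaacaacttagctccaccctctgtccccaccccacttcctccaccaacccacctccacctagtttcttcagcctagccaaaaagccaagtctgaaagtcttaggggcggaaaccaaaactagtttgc
Casp1 promoter, chr9:5298267-5298566, plus strand: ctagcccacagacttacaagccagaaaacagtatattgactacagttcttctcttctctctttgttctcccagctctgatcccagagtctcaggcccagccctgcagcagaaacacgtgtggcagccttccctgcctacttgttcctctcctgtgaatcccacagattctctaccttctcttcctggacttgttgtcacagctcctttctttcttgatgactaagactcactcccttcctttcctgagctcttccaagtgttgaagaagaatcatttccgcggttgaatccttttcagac
Casp4 promoter, chr9:5308599-5308898, plus strand: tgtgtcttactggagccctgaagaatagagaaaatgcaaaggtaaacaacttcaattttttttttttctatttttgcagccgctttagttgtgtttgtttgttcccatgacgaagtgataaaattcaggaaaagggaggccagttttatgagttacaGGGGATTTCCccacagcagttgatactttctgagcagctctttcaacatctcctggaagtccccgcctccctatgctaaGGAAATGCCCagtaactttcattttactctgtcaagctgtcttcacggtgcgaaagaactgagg
Mlkl promoter, chr8:111338156-111338455, minus strand: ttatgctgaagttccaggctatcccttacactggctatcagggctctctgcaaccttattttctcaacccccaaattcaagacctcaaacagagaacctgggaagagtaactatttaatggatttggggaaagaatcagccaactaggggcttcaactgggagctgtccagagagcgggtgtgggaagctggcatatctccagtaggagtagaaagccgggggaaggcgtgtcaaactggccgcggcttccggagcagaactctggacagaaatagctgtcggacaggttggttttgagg
The Casp4 window held 2 such matches, GGGGATTTCC on the plus strand at position -93 from the transcript start and GGAAATGCCC, a match read on the minus strand, at position -14. A window from a nearby start of Casp4 held the same 2 matches. Among all 32851 promoters of this length, 1.63% held the form. No match to it lay in the windows of the other 4 genes, counting 2 windows for Nlrp3. The STAT form TTCNNNGAA, found in 8.3% of promoters, and the interferon response form, GAAA and GAAA with any 2 bases between, found in 3.44%, matched none of the 7 windows of the 5 genes. A match is a description of letters, and its absence says only that these letters are not in this window.

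Of the 8 macrophage markers listed, 6 had a probe in the deposited data, and 5 of them were detected on all 15 arrays. Adgre1, a classic macrophage surface marker, lay between 12.71 and 14.02 and Lyz2 between 14.85 and 15.22 on the log2 scale, while Itgam was detected on 14 arrays. The data held 2 of 6 markers listed for T and NK cells, 2 of 4 for B cells, 2 of 6 for dendritic cells and 3 of 4 for mast cells. Of these 0 were detected on all 15 arrays, and markers without a probe in the data could not be checked. The neutrophil list had 6 of its 10 markers in the data, of which S100a8, S100a9 and Ltf were detected on all arrays. Summed over that list, the normalized linear level ran from 2039 to 2669 on IFNγ+LPS arrays, 2843 to 2850 on LPS arrays, 2237 to 3224 on IFNγ arrays and 2110 to 2594 on control arrays, so IFNγ+LPS arrays lay below LPS arrays and IFNγ arrays overlapped controls. The dendritic cell list had 2 markers in the data, Clec9a and Siglech. Their sum ran from 98.1 to 174 on IFNγ+LPS arrays, 91.4 to 95.9 on LPS arrays, 92.1 to 116 on IFNγ arrays and 57.7 to 64.6 on control arrays. The sum was higher with IFNγ in both states, but Clec9a was detected on only 6 of the 15 arrays and Siglech on 3. It thus rests in large part on undetected signal, and its part in the results below was not tested. Fibroblast and erythroid markers were not analysed here. Before normalization the arrays had median intensities of 143 to 241 and detected 9342 to 11047 probes. The 7 arrays with LPS shared one slide and the 8 without shared the other, so LPS and slide cannot be told apart in any comparison of LPS with control. Array 1 of the IFNγ+LPS group stood apart from its companions, with r = 0.979 and 0.980 to them across genes against 0.989 between them. The differences of the 5 genes and of called pathway genes between IFNγ+LPS and LPS are given with and without that array. For Nlrp3 without it only the test result is given. Array 1 of the IFNγ group stood apart too, with r = 0.980 and 0.983 against 0.993. Without IFNγ array 1 the log2 differences from control were 2.31 for Mlkl, 1.72 for Casp4, 1.26 for Pycard and 0.75 for Casp1, all called. That of Nlrp3 was 0.21, not called. The 2 IFNβ+LPS arrays correlated at 0.981.

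All values below are normalized intensities on a log2 scale, where a difference of 1 is 2-fold. The order of the groups differed between the genes. Casp1, Casp4 and Mlkl had their 3 highest group means in the 3 groups with LPS, then fell in the order IFNγ, IFNβ and control. Pycard instead had its highest means in the 2 groups that received IFNγ, at 9.68 with IFNγ and 9.66 with IFNγ+LPS. Nlrp3 was highest with LPS alone, at 5.99. The distance from the lowest to the highest group mean was 3.79 log2 units for Casp4, 2.90 for Mlkl, 1.32 for Pycard and 1.25 for Casp1, while Nlrp3 was too close to background to give one. Probes differ in brightness for reasons other than RNA amount, so the level of one gene is not set against that of another.

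**Figure D1:**
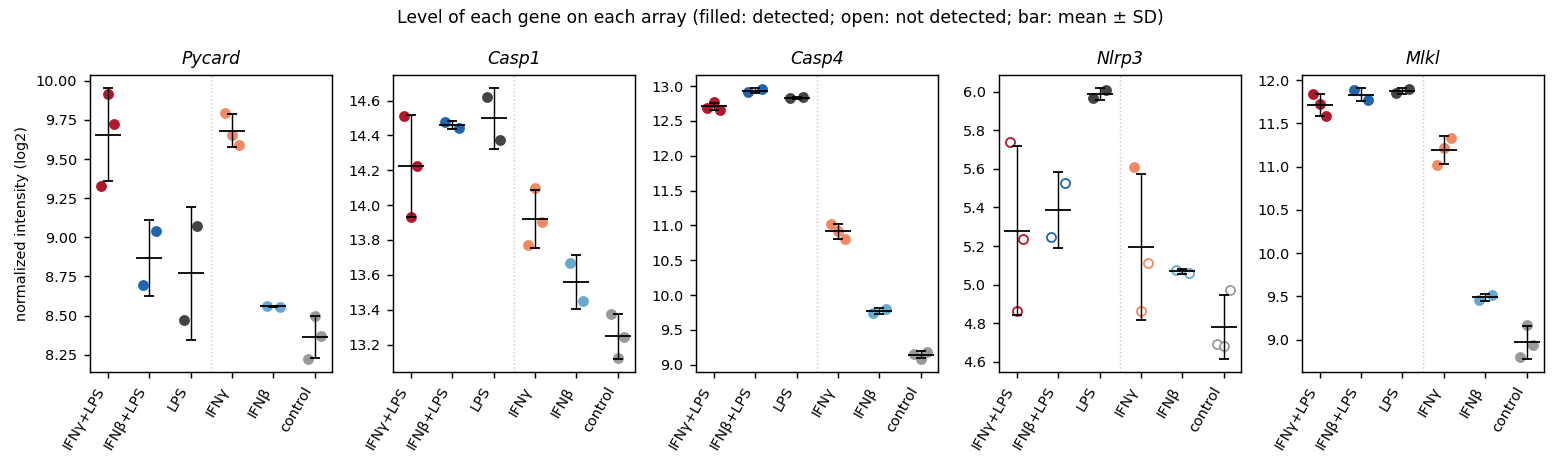
Normalized intensity (log2) of the 5 genes, 1 point per array, in the 6 groups, each panel on its own axis; horizontal bars are means with SD. Pycard sits highest in the 2 IFNγ groups, Casp4 and Mlkl sit highest in the 3 LPS groups, and the Nlrp3 probe was detected on 3 arrays only (filled points).

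IFNγ alone raised the adaptor, both caspases and the necroptosis effector in macrophages that saw no LPS. The test called 4 of the 5 genes higher and none lower (threshold 0.05 on the p adjusted over all 7669 genes), where 11.5% of all genes tested were called higher and 26.1% in either direction. Mlkl had the largest difference of the 5 at 4.65-fold, followed by Casp4 at 3.40-fold, Pycard at 2.49-fold and Casp1 at 1.60-fold. For these 4 genes the lowest IFNγ array lay above the highest control array, which held upward for 18.1% of all genes tested.

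The adaptor gene Pycard stood at 9.80, 9.65 and 9.59 on the IFNγ arrays, against 8.23, 8.50 and 8.37 on the control arrays. The groups lay more than 1 log2 unit apart at their closest arrays. The difference was 1.32 log2 units (SE 0.183, adjusted p = 8.77e-05 by limma). Casp1, whose product cuts gasdermin D and the interleukins, had 13.77, 14.10 and 13.90 on IFNγ arrays against 13.37, 13.12 and 13.24 on controls. It was already bright in controls, and all 3 IFNγ arrays lay above them. Its difference was 0.68 (SE 0.160, adjusted p = 0.00589). Casp4, the cytosolic LPS receptor, had 11.01, 10.91 and 10.81 on IFNγ arrays against 9.16, 9.09 and 9.19 on controls. The groups lay far apart relative to the spread within either. The difference was 1.77 (SE 0.111, adjusted p = 3e-08). Mlkl, the pore-forming effector of necroptosis, had 11.01, 11.22 and 11.33 on IFNγ arrays against 8.80, 9.17 and 8.94 on controls. Every IFNγ array exceeded every control array, and the difference was 2.22 (SE 0.137, adjusted p = 2.4e-08).

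The sensor Nlrp3 gave 5.61, 4.86 and 5.11 on IFNγ arrays against 4.69, 4.68 and 4.97 on controls. It was detected on 1 IFNγ array and on 0 control arrays, so no fold is given. Its difference of 0.41 did not pass the test (adjusted p = 0.190, 95% interval -0.06 to 0.88).

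IFNβ alone left 4 of the 5 genes without a call. Casp4 was the 1 gene of the 5 called higher, against 0.952% of all genes tested. Its levels were 9.75 and 9.80 on IFNβ arrays against 9.16, 9.09 and 9.19 on controls. Both IFNβ arrays lay above all controls, by 0.63 log2 units on average (1.55-fold, SE 0.124, adjusted p = 0.0231). This call was lost in 10 of 28 other ways of processing the arrays, among them the slide's 8 arrays alone (adjusted p = 0.0640), and whenever any 1 of its 5 arrays was left out (0.0701 to 0.262). Mlkl had 9.46 and 9.52 on IFNβ arrays against 8.80, 9.17 and 8.94 on controls, a difference of 0.52 that did not pass (adjusted p = 0.214, 95% interval 0.19 to 0.85). The unadjusted interval of Mlkl lies above 0, while its adjusted p, over all genes, does not pass. Casp1 had 13.67 and 13.45 on IFNβ arrays, a difference from control of 0.31 (adjusted p = 0.773, 95% interval -0.07 to 0.70). Pycard had 8.56 on both IFNβ arrays, a difference from control of 0.20 (adjusted p = 0.998, 95% interval -0.24 to 0.63). Nlrp3 was detected on no array of either group. For the other 4 genes the IFNβ arrays lay above the control arrays without overlap, as for 15.2% of all genes tested.

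IFNγ exceeded IFNβ for 3 of the 5 genes in direct comparison, where 9.58% of all genes tested were called higher. Mlkl was 1.70 log2 units higher with IFNγ than with IFNβ (3.25-fold, adjusted p = 2.19e-06), Casp4 1.14 higher (2.20-fold, adjusted p = 1.49e-05) and Pycard 1.12 higher (2.18-fold, adjusted p = 0.00129). For Casp1 the difference of 0.36 did not pass (adjusted p = 0.179, 95% interval -0.02 to 0.75). Every IFNγ array lay above both IFNβ arrays in Casp1, as for 21.5% of all genes tested. These comparisons share the IFNγ and IFNβ arrays with those above, and the labels give no interferon dose to match.

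LPS alone raised both caspases and the necroptosis effector, but the adaptor did not pass the test. Casp4, Mlkl and Casp1 were called higher and 0 of the 5 genes lower. Over all genes tested 21.2% were called higher and 55.2% in either direction. The sensor Nlrp3 was called higher too, but it was kept only through the LPS arrays, so it is not counted with them. In Casp4, Mlkl and Casp1 every LPS array also lay above every control array, as for 28.6% of all genes tested. Casp4 rose the most, 12.8-fold, to 12.82 and 12.84 on LPS arrays, against 9.16, 9.09 and 9.19 on controls. Its difference of 3.68 log2 units (SE 0.124, adjusted p = 1.57e-11) is many times the spread within either group. Mlkl had 11.85 and 11.90 on LPS arrays against 8.80, 9.17 and 8.94 on controls, a 7.47-fold rise (2.90, SE 0.153, adjusted p = 1.31e-09). Casp1 had 14.62 and 14.37 on LPS arrays against 13.37, 13.12 and 13.24 on controls, a 2.38-fold rise (1.25, SE 0.179, adjusted p = 3.97e-05). The Casp1 arrays with LPS reached within 0.778 log2 units of the highest signal in the data, 15.4.

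Nlrp3 had 5.97 and 6.01 on LPS arrays, both detected, against 4.69, 4.68 and 4.97 on controls, none detected. It rose at least 1.38-fold (adjusted p = 0.000792), a bound against the dimmest detected signal of each control array. Nlrp3 entered the test only because both LPS arrays detected it, so a difference from the undetected groups was built into its selection. Pycard had 8.47 and 9.07 on LPS arrays against 8.23, 8.50 and 8.37 on controls. One LPS array lay among the controls and the other above them. The difference of 0.41 did not pass (adjusted p = 0.108, 95% interval -0.03 to 0.85), but it passed at 0.71 (adjusted p = 0.0238) without LPS array 1 and at 0.56 (adjusted p = 0.0389) with cyclic loess normalization.

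When LPS followed, the adaptor was the 1 gene of the 5 called between IFNγ-primed and unprimed cells. Pycard was 1.85-fold higher with IFNγ+LPS than with LPS, where 6.81% of all genes tested were called higher. Its levels were 9.33, 9.92 and 9.72 on IFNγ+LPS arrays against 8.47 and 9.07 on LPS arrays. Every IFNγ+LPS array lay above both LPS arrays, as for 18.9% of all genes tested, with array 1 the lowest of the 3. The difference was 0.89 (SE 0.205, adjusted p = 0.0121), and without array 1 it was 1.05 (adjusted p = 0.00249). The call was lost on the arrays of the LPS slide alone (adjusted p = 0.0960), on the 2 groups alone (adjusted p = 0.118), without LPS array 1 (difference 0.59, adjusted p = 0.161) and without IFNγ+LPS array 2 (adjusted p = 0.0540). Against IFNβ+LPS, with 8.70 and 9.04, Pycard was 0.79 higher with IFNγ+LPS (1.73-fold, adjusted p = 0.0208), again as the 1 gene of 5 called, where 6.83% of genes tested were called higher and 6.58% lower. That call too was lost on the slide alone (adjusted p = 0.118), on the 2 groups alone (0.123), and without IFNγ+LPS array 2 (0.0844), IFNγ+LPS array 3 (0.0668) or IFNβ+LPS array 1 (0.138).

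Casp1, Casp4 and Mlkl stood near the level of LPS alone after IFNγ+LPS. Casp4 had 12.69, 12.77 and 12.66 on IFNγ+LPS arrays against 12.82 and 12.84 on LPS arrays. The IFNγ+LPS arrays lay just below, and the difference of -0.12 did not pass (adjusted p = 0.573, 95% interval -0.39 to 0.14). Mlkl had 11.84, 11.72 and 11.59 on IFNγ+LPS arrays against 11.85 and 11.90 on LPS arrays (-0.15, adjusted p = 0.565, 95% interval -0.48 to 0.17). Casp1 had 14.51, 13.93 and 14.23 on IFNγ+LPS arrays against 14.62 and 14.37 on LPS arrays (-0.27, adjusted p = 0.351, 95% interval -0.66 to 0.11). For Casp1 the IFNγ+LPS array inside the range of LPS alone was array 1. Without array 1 the differences were -0.42 for Casp1, -0.12 for Casp4 and -0.22 for Mlkl, none called. On these probes the intervals leave room for a rise of no more than 0.17 log2 units in any of the 3 genes, and for a fall of up to 0.66 in Casp1. The other Casp4 probes stood higher with IFNγ+LPS than with LPS, ILMN_1254655 by 0.10 (adjusted p = 0.755) and ILMN_2811746 by 0.40 (adjusted p = 0.387), and the dimmer Mlkl probe ILMN_2504397 by 0.15 (adjusted p = 0.707), none of which passed.

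Nlrp3 had 5.74, 4.87 and 5.24 on IFNγ+LPS arrays, none detected, against 5.97 and 6.01 on LPS arrays, both detected. It was at least 1.09-fold lower and did not pass (adjusted p = 0.0729). Without array 1, the highest of the 3, it passed (adjusted p = 0.0106), as it did with array weights (0.0163) and without IFNγ array 1 (0.0446). The probe was kept only through the LPS arrays, the high side here, so its selection favoured this direction. IFNβ+LPS gave 0 calls among the 5 genes, where 0.339% of all genes tested were called higher and 0.222% lower. Casp4 had 12.91 and 12.96 on IFNβ+LPS arrays, above both LPS arrays by 0.11 on average (adjusted p = 0.822, 95% interval -0.19 to 0.40). Such a separation held for 17.7% of all genes tested. Mlkl had 11.88 and 11.78 on IFNβ+LPS arrays, a difference from LPS of -0.04 (adjusted p = 0.954, 95% interval -0.40 to 0.32). Casp1 had 14.48 and 14.44, a difference from LPS of -0.04 (adjusted p = 0.964). Nlrp3 had 5.25 and 5.53 on IFNβ+LPS arrays, none detected, at least 1.14-fold lower than with LPS, which did not pass (adjusted p = 0.372, unadjusted p = 0.0411).

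The interaction asks directly whether the IFNγ difference under LPS differed from that without LPS. It was negative and called for Mlkl, Casp4 and Casp1, where 6.56% of all genes tested were called lower and 6.14% higher. Nlrp3 was called too, but it entered the test only through the LPS arrays, which built a negative interaction into its selection, so it is not counted with them. For Mlkl it was -2.37 (SE 0.205, adjusted p = 3.27e-06), since IFNγ stood 2.22 above control without LPS and IFNγ+LPS stood 0.15 below LPS. For Casp4 it was -1.89 (SE 0.167, adjusted p = 4e-06) and for Casp1 -0.95 (SE 0.240, adjusted p = 0.0176). The Casp1 call was lost without LPS array 1 (-0.83, adjusted p = 0.0818). The fitted Nlrp3 value, from a probe detected on 3 arrays, had an adjusted p of 0.0378 and lost its call under 15 of 27 alternatives. Without IFNγ+LPS array 1 the interaction was still called at -2.44 for Mlkl, -1.88 for Casp4 and -1.09 for Casp1.

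Pycard differed from them in not being called. Its interaction of -0.43 did not pass (adjusted p = 0.336, 95% interval -1.02 to 0.16), an interval that includes both no change and a loss of most of the IFNγ difference. For IFNβ the interaction was called for 0 of the 5 genes, where 0.13% of all genes tested were called lower and 0.0261% higher, 12 genes in all. It was -0.56 for Mlkl (adjusted p = 0.522, unadjusted p = 0.0273), -0.52 for Casp4 (adjusted p = 0.436, unadjusted p = 0.0134) and -0.89 for Nlrp3 (adjusted p = 0.526, unadjusted p = 0.0279). An additive offset between the slides drops out of an interaction. A slide difference in scale would not, and it was not tested. The Casp1 interaction includes LPS arrays that reached within 0.778 log2 units of the highest signal, and the part of this was not tested.

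**Figure D2:**
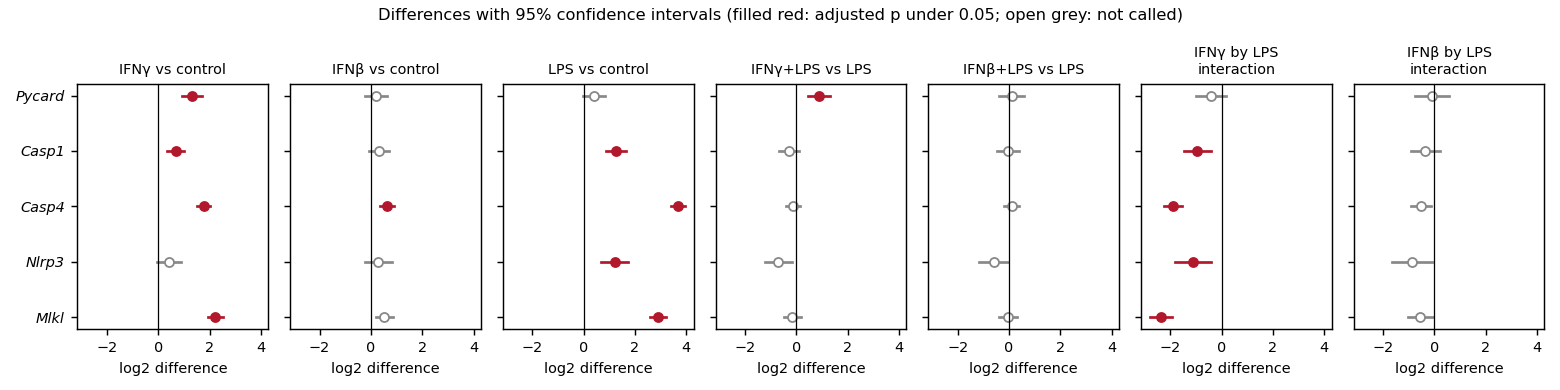
Log2 differences of the 5 genes in 5 comparisons and 2 interactions, with 95% confidence intervals; filled red points passed at an adjusted p under 0.05. IFNγ alone raised 4 genes. LPS alone raised Casp1, Casp4 and Mlkl, and Nlrp3 was called too but was kept only through its LPS arrays. After LPS, Pycard was the only gene of the 5 called between IFNγ+LPS and LPS, at 0.89.

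Genes with several probes allow a check within the same arrays. The Casp4 values above come from probe ILMN_2811737, the brightest of its 3. Probe ILMN_1254655 gave 4.31 with LPS against control, 1.57 with IFNγ against control and an interaction of -1.47 (adjusted p = 0.000598), all called over the 11117 probes kept. Probe ILMN_2811746 was dimmer and was detected on 2 of 3 IFNγ arrays and 1 of 3 controls. It rose with LPS by 2.91 (adjusted p = 7.66e-07), but its IFNγ difference of 0.39 did not pass (adjusted p = 0.299) and its interaction was 0.02 (adjusted p = 0.984). All 3 Casp4 probes were called with LPS and the 2 brighter ones with IFNγ. The dimmest lay near the detection limit in both IFNγ and control arrays, so its missed call does not show that the rise is absent, and differences between probes were not tested. Their pairwise correlations over the 15 arrays were 0.990, 0.963 and 0.927, a description in which the LPS split weighs most.

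Mlkl was read by probe ILMN_3006767. Its dimmer probe ILMN_2504397 was undetected on all IFNβ and control arrays. It was detected on all arrays of the other 4 groups, with means of 5.92 with IFNγ and 7.33 with LPS. Both were called higher than control (adjusted p = 0.00178 and 3.34e-07), and no fold is given against undetected controls. The probe was kept only through the groups that detected it, so its selection favoured both calls. Its interaction, which rests on those controls, did not pass (adjusted p = 0.0799). The other Nlrp3 probe, ILMN_1237471, was detected on 1 IFNβ+LPS array and 1 LPS array and was not kept. The 2 Nlrp3 probes correlated at 0.649 over the arrays.

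**Figure D3:**
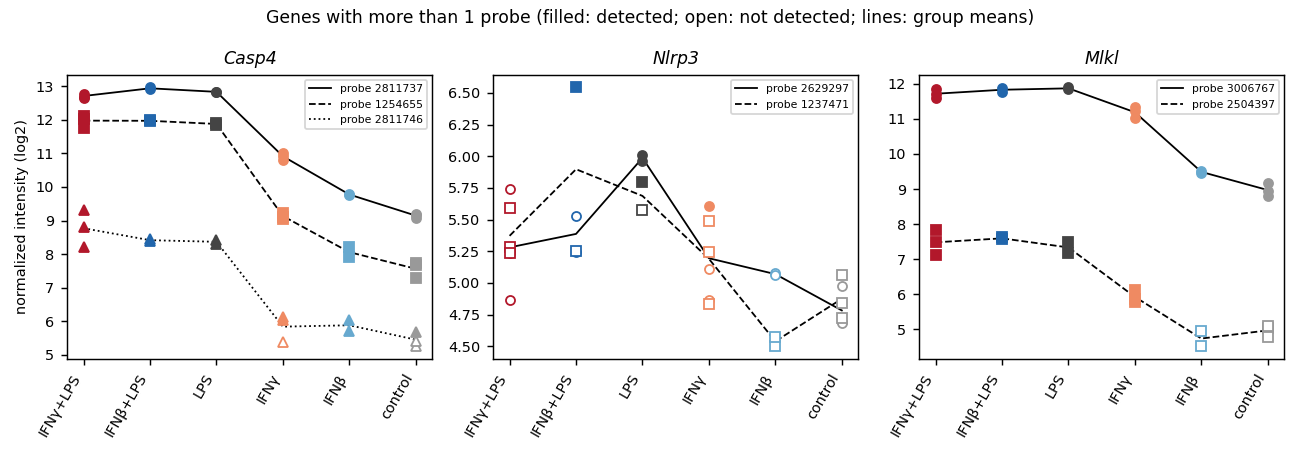
Normalized intensity (log2) by group for each probe of Casp4, Nlrp3 and Mlkl, with 1 point per array and lines joining group means. The 2 brighter Casp4 probes stand 1.77 and 1.57 higher with IFNγ than in controls, while the dimmest stands 0.39 higher near the detection limit.

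The other genes of these pathways set the 5 in context. The 9 pathway lists held 68 of them, of which 49 were tested. With IFNγ alone 20 of the 49 rose and 2 fell, with a median difference of 0.28 against -0.07 over all genes. Over all genes tested 11.5% were called higher with IFNγ and 14.6% lower. With IFNβ alone 3 rose and 0 fell (median 0.14, or 0.13 with genes undetected in a group at their bound, against 0.00 over all genes). Over all genes tested 0.952% were called higher with IFNβ and 0.17% lower. With LPS alone 21.2% of all genes tested were called higher and 34% lower. Among the 49, 34 rose with LPS and 7 fell (median 0.98, or 0.93 at the bounds, against -0.17). Among those that rose, Mefv, Birc3 and Tlr3 were kept only through groups with LPS, which favoured their rise. IFNγ+LPS against LPS gave 6 higher and 8 lower (median -0.16 against -0.03), or 7 and 11 without array 1. Over all genes tested 6.81% were called higher there and 5.97% lower. Tlr3, among the lower ones, was kept only through the LPS and IFNβ+LPS arrays, which favoured its fall. IFNβ+LPS against LPS gave 0 in either direction (median 0.03 against -0.02), where 0.339% of all genes tested were called higher and 0.222% lower. These shares apply to every list below, where a count near its share is not a result about the list.

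Among the sensors, 0 of 5 were called with IFNγ. Aim2, which binds DNA in the cytosol, stood 0.44 above control with IFNγ (adjusted p = 0.509). With LPS 3 of the 5 rose: Nlrp3, Aim2 by 1.57 (adjusted p = 0.0144) and Mefv, the gene of pyrin, at least 9.73-fold (adjusted p = 8.11e-10). Nlrp3 and Mefv were kept only through groups with LPS, so their selection favoured a rise with LPS. IFNγ+LPS was lower than LPS for 3 sensors. Naip5, whose product binds flagellin, fell by 1.17 (adjusted p = 0.0122, lost under 4 of 28 alternatives) and Naip2, whose product binds a bacterial secretion rod protein, fell by 0.93 (adjusted p = 0.0030). Aim2 had 7.24, 5.61 and 4.70 on IFNγ+LPS arrays, of which the last 2 were undetected, against 7.78 and 7.40 on LPS arrays. The difference of Aim2 was -1.74 (adjusted p = 0.0311), and 7 of 28 alternatives lost the call. Without array 1 the difference was -2.43 for Aim2, -1.50 for Naip5 and -1.04 for Naip2, all still called. Besides the 3 members, the list of adaptor and caspases had Casp8, the apoptotic caspase that also restrains necroptosis. Casp8 rose 1.89-fold with LPS (adjusted p = 0.000200) and stood 0.19 above control with IFNγ (adjusted p = 0.358). Casp12, the next gene after Casp4, was on the array but below the detection filter.

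Gasdermin D, the pore protein that both caspases cut, was called in the same comparisons as Casp1 among those given here. Gsdmd had 10.70, 10.89 and 11.09 on IFNγ arrays against 10.27, 10.30 and 10.06 on controls, a 1.61-fold rise (adjusted p = 0.00211). With LPS it had 12.18 and 11.96, a 3.62-fold rise over control (adjusted p = 1.86e-07), and IFNγ+LPS differed from LPS by -0.19 (adjusted p = 0.474). Its interaction with IFNγ was -0.87 (adjusted p = 0.0129). Ninj1, which ruptures the membrane after gasdermin pores form, rose 1.71-fold with LPS (adjusted p = 0.00223) and stood 0.21 below control with IFNγ (adjusted p = 0.373).

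The cytokine substrates split. Il18 rose 2.30-fold with IFNγ (adjusted p = 8.42e-05) and 12.3-fold with LPS (adjusted p = 1e-09). Il1b rose with LPS to 14.08 on both arrays, against a control mean of 5.49 with 1 of 3 control arrays detected (adjusted p = 3.56e-10), and Il1a rose 94.1-fold (adjusted p = 1.74e-10). With IFNγ alone Il1b stood at 0.06 (adjusted p = 0.922) and Il1a at -0.16 (adjusted p = 0.696). After priming and LPS, Il1b had 13.51, 11.64 and 11.90 on IFNγ+LPS arrays against 14.08 on both LPS arrays. Array 1 lay between its companions and LPS alone, and the 2 LPS arrays are equal because the probe held the same rank on both before quantile normalization. IFNγ+LPS was lower than LPS by 1.73 log2 units for Il1b (-1.73, adjusted p = 0.0117) and by 1.34 for Il1a (-1.34, adjusted p = 0.00693). The Il1b call was lost under 5 alternatives and the Il1a call under 3. Without array 1 the differences were -2.30 for Il1b and -1.73 for Il1a, both called, and that of Il18 passed at -0.71 (adjusted p = 0.0125), against -0.55 with it (adjusted p = 0.0703). These RNA levels therefore went below LPS alone with IFNγ, where Casp1, Casp4 and Mlkl had no call and Pycard was higher. The differences between genes were not tested.

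The GTPase genes listed under cytosolic LPS delivery, with Irgm1 and Irgm2 among them, rose with IFNγ in 7 of 7 tested. Their median was 5.73, or 5.22 with undetected genes at their bound. Gbp2 rose 78.6-fold (adjusted p = 9.89e-14), Gbp3 55.0-fold (adjusted p = 4.42e-12), Gbp2b at least 184-fold and Gbp5, which also acts on NLRP3, at least 36.5-fold. With IFNβ 3 of the 7 rose: Gbp2 2.31-fold (adjusted p = 0.000176), Gbp3 2.16-fold (adjusted p = 0.00589) and Irgm2 1.87-fold (adjusted p = 0.00693). With LPS alone all 7 tested rose too, Gbp3 113-fold (adjusted p = 2.21e-12) and Gbp5 at least 143-fold (adjusted p = 1.05e-11). Under LPS, IFNγ added a call at 1 of the 7, Gbp2b, which stood at 11.67 with IFNγ+LPS against 6.12 with LPS (46.7-fold, adjusted p = 1.69e-08), and without array 1 was 5.83 higher. Gbp2 stood at 15.29 with IFNγ+LPS, 15.08 with LPS and 15.34 with IFNγ, all near the highest signal of 15.4, so a further rise had little room. The interaction was called lower for 7 of 7, including Gbp3 at -6.21 (adjusted p = 1.42e-09) and Gbp2 at -6.08 (adjusted p = 4.33e-11).

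In the necroptosis list 6 of 13 genes rose with IFNγ and 1 fell. Besides Mlkl these were Tnf, the cytokine that starts necroptosis, at 3.03-fold (adjusted p = 4.1e-05), Zbp1, which senses Z-form nucleic acid and binds RIPK3, at 2.72-fold (adjusted p = 7.68e-06), and the receptor Tnfrsf1a at 2.13-fold (adjusted p = 0.00446). The remaining ones, named after their values were seen, were the kinase Ripk3 at 0.85 (adjusted p = 0.00546), the ubiquitin ligase Birc2 at 1.01 (adjusted p = 0.000107) and, as the 1 that fell, the adaptor Fadd at -0.60 (adjusted p = 0.0113). LPS raised 11 of the 13 and lowered 1. Among those raised, Birc3 and Tlr3 were kept only through groups with LPS, which favoured their rise. Ripk3 stood at 0.13 with LPS (adjusted p = 0.642). Ripk3 and Mlkl, kinase and target, thus were both called with IFNγ, and with LPS only Mlkl was, though the difference between the genes was not tested. Under LPS, Ripk3 had 7.68, 8.05 and 8.16 on IFNγ+LPS arrays against 6.69 and 7.07 on LPS arrays, a 2.12-fold difference (adjusted p = 0.00612). Like Pycard, all its IFNγ+LPS arrays lay above both LPS arrays, as for 18.9% of all genes tested. Birc3 was also higher with IFNγ+LPS (1.56-fold, adjusted p = 0.0269, lost under 8 of 28 alternatives), and Tlr3, a receptor for double-stranded RNA, was lower (-1.39, adjusted p = 0.00525). Tlr3 was kept only through the LPS and IFNβ+LPS arrays. The LPS arrays are the high side here, so its selection favoured this direction. Without array 1 the differences were 1.22 for Ripk3, 0.79 for Birc3 and -1.71 for Tlr3, all called.

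Regulators of NLRP3 had 2 of 8 higher with IFNγ and 1 lower, against 11.5% and 14.6% of all genes tested. Brcc3, which removes ubiquitin from NLRP3, rose 1.70-fold (adjusted p = 0.0191), beside Gbp5, and the potassium channel gene Kcnk6 fell by 0.68 (adjusted p = 0.00369). With LPS 4 of the 8 fell, including Txnip by 2.28 (adjusted p = 2.7e-05), Kcnk6 by 1.66 (adjusted p = 1.3e-06) and the membrane channel gene Panx1 by 1.39 (adjusted p = 0.000558). Over all genes tested 34% were called lower with LPS. Panx1 had 8.57, 8.90 and 9.21 on IFNγ+LPS arrays against 7.58 and 7.67 on LPS arrays, a 2.40-fold difference (adjusted p = 0.00735), or 1.43 log2 units without array 1. Kcnk6 was called lower there, with means of 8.68 with IFNγ+LPS and 9.24 with LPS. Without array 1 its difference was -0.72 (adjusted p = 0.00494). The ESCRT genes that repair pores had 0 of 6 called with IFNγ, where Vps4a stood at -0.48 (adjusted p = 0.0622). With LPS 2 of the 6 rose, Vps4b by 1.15 (adjusted p = 0.000446) and Chmp4b by 0.98 (adjusted p = 0.0423, lost under 6 alternatives), and Chmp3 fell by 0.64 (adjusted p = 0.00848). Those counts stand beside 21.2% of all genes tested called higher and 34% lower.

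Upstream factors were called higher with IFNγ for 5 of 8. Irf1 rose 10.0-fold (adjusted p = 5.12e-11), Irf8 7.79-fold (adjusted p = 9.43e-07), Stat2 4.47-fold (adjusted p = 2.72e-05) and Irf2, a known activator of Gsdmd, 1.58-fold (adjusted p = 0.00284). The fifth, named after its value was seen, was the LPS receptor Tlr4 at 0.63 (adjusted p = 0.00308). With IFNβ 0 of the 8 were called, and Irf9 stood at 0.69 (adjusted p = 0.0963). Under LPS the factors that IFNγ held higher were Irf8 (6.12-fold, adjusted p = 5.13e-05) and Irf1 (1.56-fold, adjusted p = 0.00598), while Irf9 was lower (-0.57, adjusted p = 0.0445). The Irf9 call was lost under 16 of 28 alternatives and the Irf1 call under 4. Without array 1 the differences were 2.85 for Irf8, 0.71 for Irf1 and -0.70 for Irf9, all called. The interaction of IFNγ with LPS was called lower for 21 of the 49 genes and higher for 0, against 6.56% and 6.14% of all genes tested. Its median was -0.65 against 0.06 over all genes. Without IFNγ+LPS array 1 it was called lower for 25 and higher for 2.

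**Figure D4:**
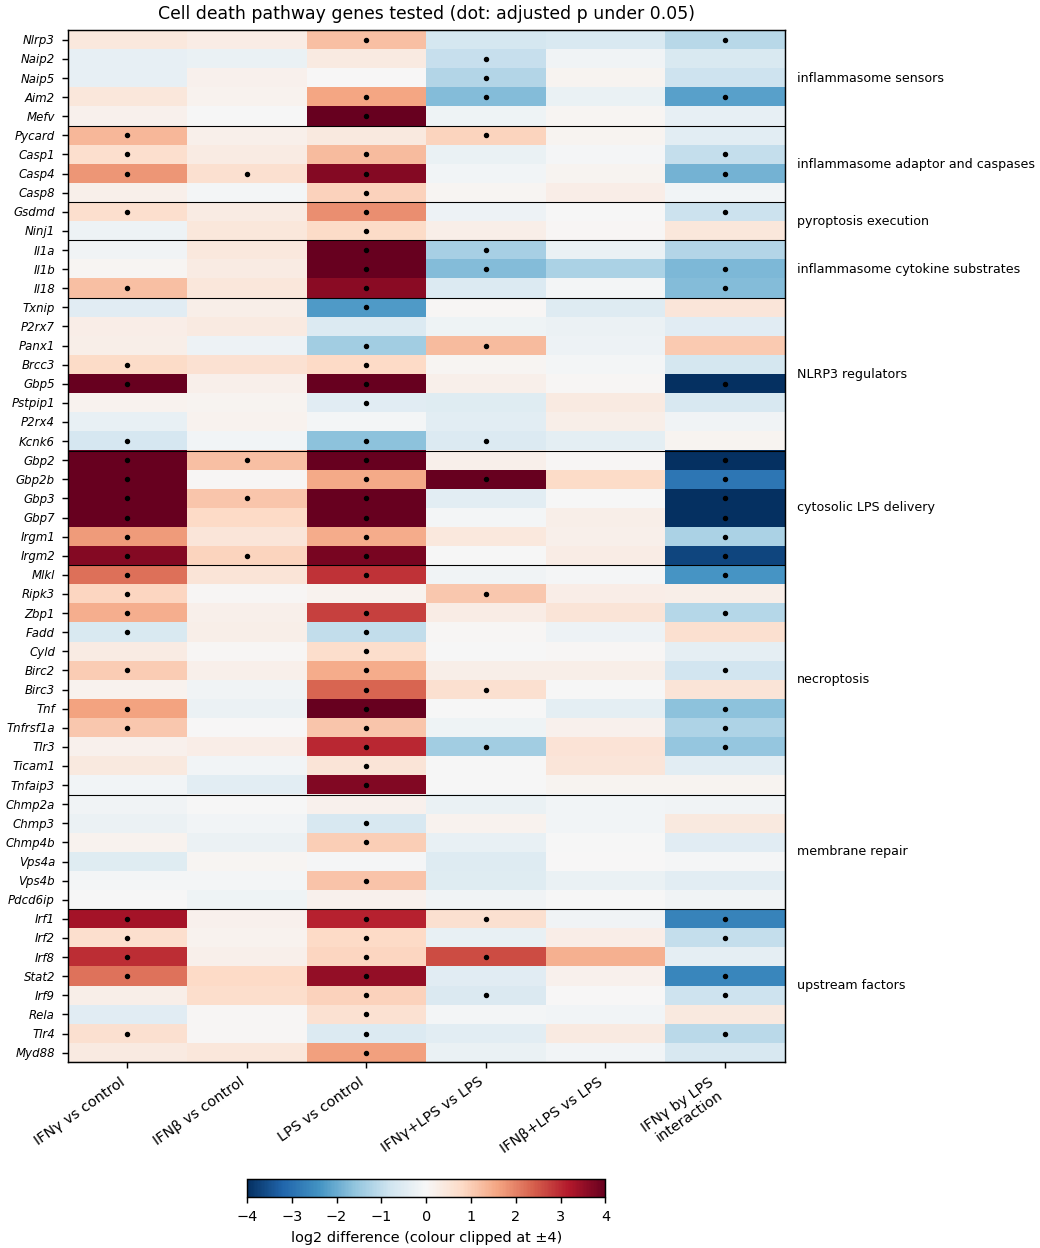
Log2 differences (colour, clipped at 4 either way) of the pathway genes tested, the 5 described here included, in 5 comparisons and the IFNγ by LPS interaction; dots mark an adjusted p under 0.05. Red dominates with IFNγ and with LPS. Under LPS the IFNγ column holds fewer calls than those columns, among them Pycard, Ripk3, Panx1 and Gbp2b higher and Il1a, Il1b and Aim2 lower. Apart from the 5 genes it holds 6 higher and 8 lower of 49, against 6.81% and 5.97% of all genes tested.

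The 5 genes did not share one profile over the 15 arrays. Casp4 correlated with Mlkl at r = 0.952 and with Casp1 at 0.931, and Casp1 with Mlkl at 0.920. Pycard correlated with the other 4 at 0.137 to 0.636. The genes with the highest correlation to Pycard were Ciita, the activator of MHC class II genes, at 0.963, Cd74, the invariant chain of MHC class II, at 0.962, and Plac8 at 0.961. Ciita averaged 10.54 ± 0.161 with IFNγ (SD, n = 3) against 4.69 ± 0.122 in controls (SD, n = 3), and 10.25 ± 0.720 with IFNγ+LPS (n = 3) against 6.59 ± 0.231 with LPS (n = 2), so it shared with Pycard the higher level in both IFNγ groups. Most like Casp4 were Cd69 at 0.994 and the interferon-induced Mx1 and Isg15 at 0.993 each. Most like Mlkl were the chemokine gene Ccl12 at 0.994, Trafd1 at 0.991 and Gbp3 at 0.990. For Casp1 they were Marcks, Asb13 and Arel1, at 0.969, 0.961 and 0.953. For Nlrp3, detected on few arrays, they were the interferon receptor chain Ifnar2 at 0.935, Anxa6 at 0.892 and Flvcr2 at 0.874. All these correlations are over the same 15 arrays, which share their normalization and the split by LPS and slide, and they are given as descriptions.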

How the data were processed

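RNA of the 15 macrophage arrays was measured as bead intensity. The deposited table gives an intensity and a detection p-value for each probe and array, per the file headers, not yet normalized. The authors' deposited log2 values of the same arrays were used as an alternative only; the sources do not state how they were normalized. Background was corrected with normexp from the detection p-values (limma 3.58.1, R 4.3.3, offset 16), and log2 values were quantile normalized. Probes at a detection p under 0.01 on every array of a group were kept (11117 of 15978), and each gene was read by its brightest probe (7669 genes, of 10900 symbols). A group-means model over all 15 arrays was fitted with limma, with Benjamini-Hochberg adjustment over all genes and calls at an adjusted p under 0.05. The method was tested on simulated data. Where a group did not detect a probe, "at least" folds compare the brighter mean with the dim group's mean of, per array, the higher of the lowest detected signal and the probe's own.

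The 5 genes and the lists were chosen with earlier results of these data known. From each pathway list and comparison the text draws on up to 4 called genes with the largest absolute difference and up to 2 uncalled ones, on a few treatment checks such as Il1b and Tnf, and on the 3 genes most correlated with each of the 5; others are marked as named after their values were seen. Alternatives covered background, normalization, filter, probe choice, model, slide, replicate block and leaving out each array.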

Additional observations from a re-analysis of the deposited data

Results flagged for a closer look

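By the interaction term of the limma fit, the difference made by IFNγ was lower with LPS than without for Casp1, Casp4 and Mlkl. It was also lower for 21 of the other 49 pathway genes, against 6.56% of all genes tested (adjusted p under 0.05 over all genes). Nlrp3 was called too but is not counted with them, for the reason given below. The values of 19 of these calls, that of Nlrp3 included, follow, and the other 6 calls were negative too. Among the 5 genes described they were -0.95 for Casp1, -1.89 for Casp4, -1.12 for Nlrp3 and -2.37 for Mlkl. The Nlrp3 value is a fitted one on a probe near background that was kept only through the LPS arrays, so its direction was favoured by selection and it supports nothing here. Among sensors, effectors and cytokines they were -2.18 for Aim2 (adjusted p = 0.0439), -0.87 for Gsdmd, -1.79 for Il1b (adjusted p = 0.0408) and -1.75 for Il18 (adjusted p = 0.000298). The Aim2 and Il1b calls were each lost under 14 alternatives. Among the GTPases they were -5.54 for Gbp5, -6.08 for Gbp2, -6.21 for Gbp3 and -5.32 for Gbp7. Gbp5 was undetected in controls, so its value is fitted against background. Gbp2 stood at 15.29 with IFNγ+LPS, 15.08 with LPS and 15.34 with IFNγ, near the highest signal of 15.4. A further rise of Gbp2 thus had little room, and the part of this in its interaction was not tested. Among genes of necroptosis they were -1.63 for Tnf (adjusted p = 0.00273), -1.25 for Tnfrsf1a (adjusted p = 0.0404, lost under 12 alternatives) and -1.55 for Tlr3 (adjusted p = 0.0133). Tlr3 was undetected in controls and with IFNγ and was kept only through the LPS and IFNβ+LPS arrays, which favoured this direction. Among upstream factors they were -2.68 for Irf1, -0.96 for Irf2 (adjusted p = 0.00797), -2.62 for Stat2 (adjusted p = 0.000497) and -1.06 for Tlr4 (adjusted p = 0.00295). The difference made by IFNβ also differed with LPS for Gbp2, at -1.15 (adjusted p = 0.0309), a call lost under 17 alternatives. No group held enough arrays to test a single array as an outlier.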

How the results depend on the processing

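Over 28 alternatives and 45 differences of the 5 genes, 1203 of 1245 values kept their side of the threshold, 35 lost a call, 7 gained one and 0 called values reversed. Of those 1203, 15 were uncalled differences that changed sign. The members called with IFNβ against control numbered 1, and became 2 with array weights and 0 with the mean of detected probes, no detection filter, the groups compared alone, the slide alone or the replicate block (0 to 1 leaving out single arrays). For IFNγ+LPS against LPS they numbered 1, and became 2 with array weights and 0 on the groups compared or the slide alone (0 to 2 leaving out arrays). For IFNγ+LPS against IFNβ+LPS they numbered 1, and became 0 on the groups compared or the slide alone (0 to 1 leaving out arrays). For the IFNγ interaction they numbered 4, Nlrp3 included, and 2 to 4 leaving out arrays. The cause of these shifts was not tested, except that fits on fewer arrays have less to estimate the spread from.

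Counts over all genes moved by over 1.5 times as follows. With array weights, IFNγ against control gave 3072 in place of 2001, IFNβ against control 195 in place of 86, IFNγ against IFNβ 2610 in place of 1582, the IFNγ interaction 1464 in place of 974, IFNβ+LPS against LPS 16 in place of 43, and the IFNβ interaction 6 in place of 12. IFNγ+LPS against LPS gave 305 on the slide alone and 203 on the groups alone in place of 980, and IFNγ+LPS against IFNβ+LPS 403 and 187 in place of 1029. IFNβ+LPS against LPS gave 0 in both fits, 65 without background correction, 28 without the filter and 67 with mean probes. The IFNβ interaction gave 22 without background correction, 20 with offset 50, 24 with mean probes, 27 with trended and robust variance and 6 with the replicate block. Leaving out 1 array moved IFNγ+LPS against LPS to between 404 (without LPS array 1) and 1500 (without IFNγ+LPS array 1), IFNγ+LPS against IFNβ+LPS to as few as 520 (without IFNβ+LPS array 2), IFNγ against IFNβ to 862 (without either IFNβ array), IFNβ against control to as few as 31 (without IFNβ array 2), the IFNγ interaction to 640 (without LPS array 2), IFNβ+LPS against LPS to between 1 (without LPS array 1) and 99 (without IFNγ+LPS array 1), and the IFNβ interaction to between 1 (without LPS array 2 or either IFNβ array) and 26 (without IFNγ+LPS array 1).

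The deviations of same-numbered arrays correlated at r from -0.435 to 0.215 over 33 pairs, 5 of them over 0.1. In groups of 2 arrays the deviations mirror each other, so the pairs are not independent, and differently numbered arrays were not compared. These values therefore cannot decide if the replicate numbers pair the arrays. With the replicate block the Casp4 call with IFNβ (adjusted p = 0.0947) and the Nlrp3 interaction (adjusted p = 0.0540) were lost. The number of arrays, 2 or 3 in a group, and the Nlrp3 signal near background limit the precision.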
